A study of Mus musculus with 14 samples.

Results

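The sine oculis homeobox genes and the Eya genes of the mouse were followed through promoter capture Hi-C (PCHi-C) lists of cranial neural crest cells (CNCCs). The members were Six2, Six3, Six4, Six6, Eya1, Eya2 and Eya4, 7 genes chosen with earlier results of these data known. Each was taken through the HindIII restriction fragment that served as a capture bait and holds one of its annotated transcription start sites (mm10, GENCODE vM21), which gave 7 baits of the 22171 that appear in the lists. Together they accounted for 441 of the 837141 distinct same-chromosome pairs of fragments listed in any library. PCHi-C joins pieces of DNA that lie close together in the nucleus, then enriches the joined molecules that hold a promoter. The deposited values are CHiCAGO scores, which weigh how far the read pairs between a bait and another fragment exceed the background fitted for their distance in that library. The lowest listed score was 5, and a pair that was not listed was set to 0.

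There were 14 libraries from 7 conditions, with 2 replicates each. Wild-type CNCCs of embryonic day E10.5 came from 4 places: the frontonasal process (FNP), the upper or maxillary part (Mx) and the lower or mandibular part (Md) of the first pharyngeal arch, and the second pharyngeal arch (PA2). Wild-type cells were sorted by a red reporter that Wnt1::Cre switches on in the neural crest (Wnt1::Cre;ROSA-RFP). The knockout condition was PA2 of E10.5 embryos homozygous for Hoxa2EGFP, a Hoxa2 allele that carries EGFP, sorted by the green reporter, so genotype and sort cannot be told apart in the comparison with wild-type PA2. The remaining conditions were wild-type CNCCs of the pinna, the outer ear that grows from PA2, at E12.5 and E14.5. E14.5 tissue was dissociated with papain and younger tissue with trypsin, so stage and enzyme cannot be told apart at E14.5. Each list averages many sorted cells, and fewer cells with a contact cannot be told apart from a weaker contact in each cell.

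The libraries listed between 113670 and 186248 same-chromosome pairs, with the fewest in the knockout replicates (113670 and 120854). The PA2 replicates listed 140559 and 145035, the E12.5 pinna replicates 134063 and 186248, and the E14.5 pinna replicates 145549 and 182088. Md replicate 1 and E12.5 pinna replicate 2 stood apart. Pairs between chromosomes made up 46.5% and 62.7% of their lists, against 2.64% to 5.61% in the other 12, so results that change without these libraries are given both ways. The deposited names of these 2 lists describe merged data. If they are not single replicates, the n of 2 and the p-values may not hold for Md and E12.5 pinna. The read counts behind the scores were not analysed here, so the depth of each value is unknown. The labels do not say whether replicates came from separate litters, and p-values measure only the spread between these libraries.

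Sine oculis proteins such as Six2 are homeodomain transcription factors, and Eya proteins are phosphatases that bind them as co-activators. With Pax and Dach proteins they form a network that is used again and again in sense organs, kidney, muscle and the head. Six2 is known from nephron progenitors and from the frontonasal skeleton, and in PA2 it is a known target of repression by Hoxa2. Six3 and Six6 act in the forebrain and eye, where they bind Groucho (Tle) co-repressors. Six4 acts with other sine oculis genes in muscle, kidney and sensory ganglia. Eya1 is needed for the ear and kidney and is mutated in branchio-oto-renal syndrome, and Eya4 is linked to hearing loss and heart muscle disease.

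The 7 baits differed widely in how many fragments they contacted. Across the 14 libraries the Six2 bait listed a median of 30 same-chromosome fragments (15 to 36), the Six3 bait 29 (21 to 42), the Six4 bait 37 (7 to 56) and the Eya1 bait 23.5 (9 to 34). The Eya4 bait listed 12 (2 to 27) and the Six6 bait 9.5 (4 to 15). The Eya2 bait listed 0.5 (0 to 3), with 8 distinct fragments in all, none of them in 4 or more libraries. Bait length and the number of read pairs differ between baits, so these counts compare a bait with itself across libraries rather than one gene with another. Six4 and Eya1 were low in both pinna stages, and Eya4 was lowest in the knockout.

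**Figure D1:**
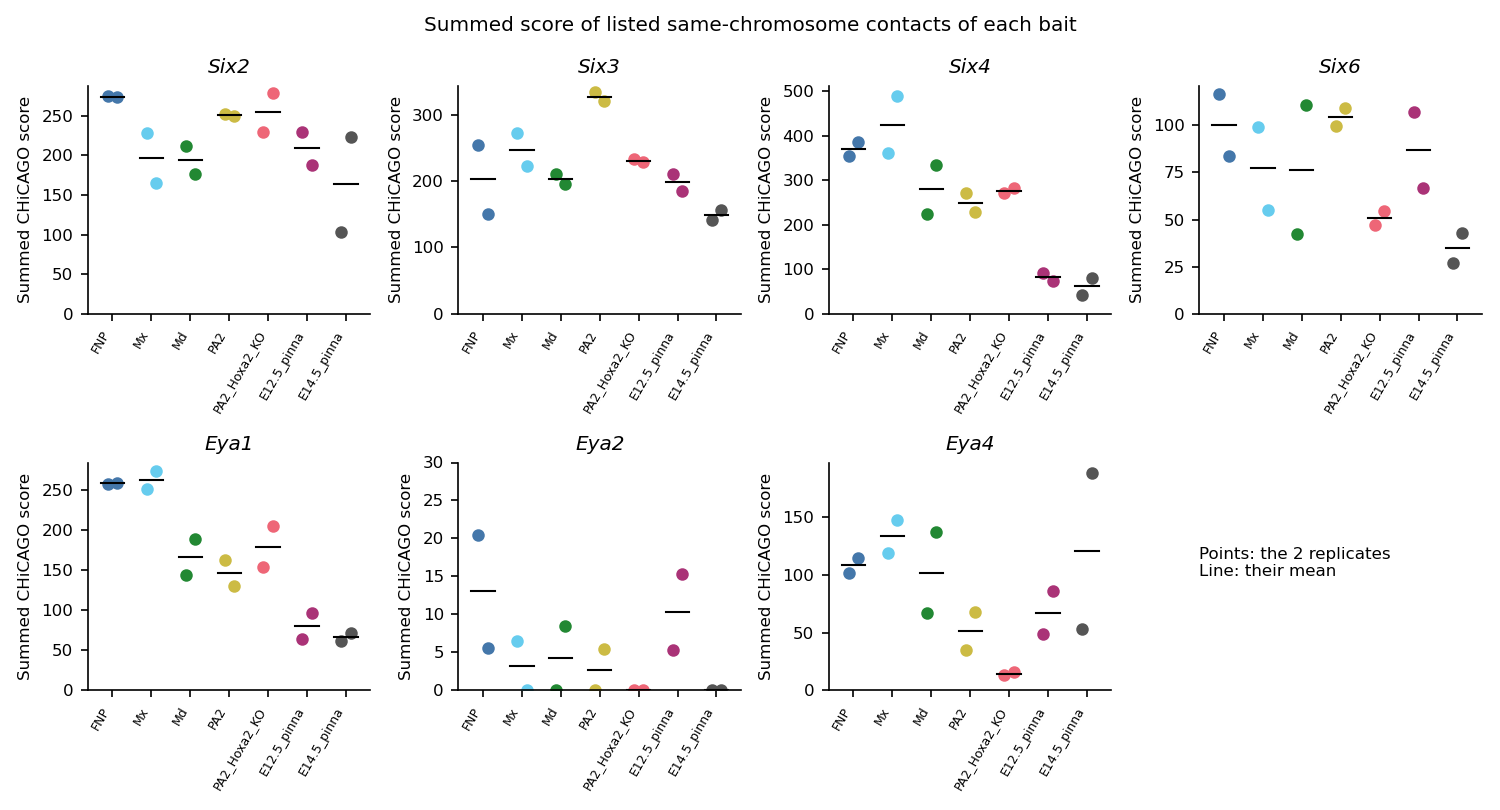
Summed CHiCAGO score of all listed same-chromosome contacts of each member's bait (vertical axis, its own scale in each panel) in the 7 conditions. Points are the 2 replicates and lines their means. All 4 pinna libraries lie below all 10 E10.5 libraries for Six4 and Eya1.

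Changes over conditions were tested with limma on 2 measures, each fitted over the whole table. One was asinh of the score, the inverse hyperbolic sine, for every pair that at least 4 libraries listed, the other the log2 of a bait's summed score plus 5, centred on the median of each library. Of the 441 member pairs, 180 were listed in at least 4 libraries and could be tested. An adjusted p below 0.05 (Benjamini-Hochberg over all rows) counted as a call. Over the 7 conditions, 22 of the 180 member pairs were called, 12.2%, against 4.37% of all 159013 pairs. With Md replicate 1 and E12.5 pinna replicate 2 left out it was 40 of 172 (23.3%, against 8.62% of all pairs in that fit), and with scores below 10 set to 0 it was 5 of 27 (18.5%, against 5.93%). Of the 7 baits, 3 were called (Six4, Eya1 and Eya4), against 5.1% of all 21991 baits tested. Neighbouring fragments share read pairs and chromatin, and 8 of the 22 called pairs were neighbours within 1 block of Six3 contacts, so the pairs are not independent counts.

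Another 3 contrasts were read from the same fits. For FNP against the mean of Mx, Md and PA2, 0 member pairs were called by limma (background 0.189%). At an unadjusted p below 0.05 were 20 of the 180 (against 7.1% of all pairs). At the bait level 0 of the 7 members and 0 of all baits (0%) were called, with 0 members and 1097 baits in all at an unadjusted p below 0.05. For the knockout against wild-type PA2, 2 member pairs were called (1.11%, background 2.09%), 1 higher and 1 lower. Of all 3331 pairs called, 2760 were lower in the knockout. At the bait level 0 members were called (background 0.646%), with 1 of 7 at an unadjusted p below 0.05 (against 11.2% of all baits). Of all 142 baits called, 139 were lower in the knockout. The pair count moved readily. Without both Md replicate 1 and E12.5 pinna replicate 2 it was 13 of 172 (7.56%, against 4.85% of all pairs in that fit). It was 4 to 6 without any single FNP, Mx, Md or E12.5 pinna library. Those were 2.29% to 3.47% of the member pairs tested, near the 2.86% to 3.17% of all pairs. The count also moved without knockout replicate 2 or PA2 replicate 1, fits that leave 1 library in a compared condition. For the mean of both pinna stages against PA2, 14 member pairs were called and all 14 were lower in the pinna (7.78%, background 1.57%). Of all 2489 pairs called, 1363 were lower in the pinna. Of the 14, 8 lay in 1 block of Six3 contacts and 4 in 1 block of Six4 contacts, so they are not independent counts. The pinna contrast also called 3 member baits, all lower, against a background of 2.33% (512 baits, 322 of them lower). It rests on the 2 PA2 libraries: without PA2 replicate 1 the pair count was 3 (1.71%, against 0.482% of all pairs) and without PA2 replicate 2 it was 5 (2.92%, against 0.5%), and the bait count was 1 without either of them or without E14.5 pinna replicate 2.

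Six2 and Six3 are neighbours on chromosome 17, transcribed towards each other from start sites 67.2 kb apart. The Six2 bait is chr17:85685886-85698371 (gene on the minus strand), which also holds the start of the transcript AC166821.1. The Six3 bait is chr17:85612720-85625997 (plus strand), which also holds the start of Six3os1, the antisense transcript of Six3, and of 7 predicted Gm genes, so contacts of these promoters cannot be separated from those of these transcripts. The promoter windows of both genes, 250 bases before to 50 after the start site as RefSeq gives them on GRCm38.p6, are shown because they are the viewpoints of the contacts described next.

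Six2 (chr17:85688205-85688504, minus strand): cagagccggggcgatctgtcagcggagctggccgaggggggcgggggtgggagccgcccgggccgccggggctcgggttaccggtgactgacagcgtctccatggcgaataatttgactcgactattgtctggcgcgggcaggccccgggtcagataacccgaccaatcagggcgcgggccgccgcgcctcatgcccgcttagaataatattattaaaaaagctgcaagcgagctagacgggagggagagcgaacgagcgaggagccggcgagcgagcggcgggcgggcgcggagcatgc
Six3 (chr17:85620584-85620883, plus strand): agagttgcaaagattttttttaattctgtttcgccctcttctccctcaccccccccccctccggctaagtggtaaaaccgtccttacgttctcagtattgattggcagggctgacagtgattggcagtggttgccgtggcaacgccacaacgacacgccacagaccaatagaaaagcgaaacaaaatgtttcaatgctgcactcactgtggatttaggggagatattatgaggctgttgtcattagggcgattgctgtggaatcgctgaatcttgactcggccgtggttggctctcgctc

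The Six2 window was 67.3% G and C and the Six3 window 50%, against a median of 52.7% over 32851 promoter windows. Neither window held any of 3 motifs searched on both strands. The first was AGGNGGCAG, a loose form of the core bound by the boundary protein CTCF (in 3.86% of all promoter windows). Its N admits any base, so its matches, called core letters below, are not counts of sites bound by CTCF. The others were TCAGGTTTC, the MEF3 site bound by sine oculis factors (0.429%), and TGATNNAT, a joint site of Hox and Pbx factors (8.85%).

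The 2 neighbours contacted opposite sides. The Six2 bait had 100% of its listed same-chromosome fragments at higher coordinates in both replicates of FNP, of Mx and of E14.5 pinna. The share was 86.2% and 90.9% in Md, 65.6% and 69.4% in PA2, 76.7% and 80% in the knockout, and 70% and 84% in E12.5 pinna. The Six3 bait had between 4.76% and 16.1% there. The share was 87.3% ± 13.1 (SD, n = 14) for Six2 and 10.05% ± 3.97 for Six3. The ranges did not overlap, and Six2 was higher in 14 of 14 libraries, by a mean of 77.3 percentage points (exact two-sided sign-flip permutation test over libraries, p = 0.000122, the smallest this test can give with 14 libraries). The test treats the 14 libraries as independent, although they are 7 conditions with 2 replicates each.

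The main contacts of Six2 lay within Srbd1, which codes for a protein with an RNA-binding S1 domain, on the minus strand at chr17:85984665-86145175. The block of contacts ran from 321 to 386 kb above the Six2 bait (a block here is a run of fragments, each listed in at least 4 libraries, with gaps of at most 30 kb). It was drawn from these data and is described without a test. It held 26 fragments, 22 within introns of Srbd1 and 4 with an exon (here and below, places are given against protein-coding genes of GENCODE vM21 only). Every library listed 14 to 24 of them, and 7 Six2 fragments were listed in all 14 libraries. The summed score of the block was 195 and 203 in FNP, 178 and 142 in Mx, 163 and 140 in Md, and 150 and 142 in PA2. It was 146 and 199 in the knockout, 162 and 152 in E12.5 pinna, and 97.8 and 189.7 in E14.5 pinna. The conditions overlapped throughout, and the 2 E14.5 replicates spanned almost the whole range.

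The 7 Six2 fragments listed in all 14 libraries were in this block. The one with the highest mean score, chr17:86062676-86066865, 373 kb from the bait, scored between 8.51 (Mx replicate 1) and 15.7 (FNP replicate 2). Its neighbours at 342 and 376 kb scored 6.23 to 17.3 and 5.71 to 15.0, and those at 345 and 347 kb 5.79 to 14.9 and 6.1 to 11.2. At 342 kb FNP was highest, with 15.0 and 17.3, and the knockout lowest, with 6.29 and 6.23, but limma's adjusted p over the 7 conditions was 0.148.

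At the level of the whole bait, Six2 was not called in any contrast. The summed score was 274 and 273 in FNP, 228 and 165 in Mx, 211 and 176 in Md, and 252 and 250 in PA2. It was 229.5 and 278.6 in the knockout, 229 and 188 in E12.5 pinna, and 103 and 224 in E14.5 pinna. FNP was the highest wild-type condition with 2 close replicates. The difference of FNP from Mx, Md and PA2 was 0.45 on the centred log2 scale (SE 0.29, limma adjusted p = 0.999). The difference of the knockout from PA2 was 0.18 (SE 0.36, limma adjusted p = 0.901).

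A single Six2 contact was called as lower in the knockout, the direction of 2760 of all 3331 pairs called. It was an 839-base fragment in an Srbd1 intron, chr17:86030831-86031669, 339 kb from the bait. It scored 9.06 and 6.95 in FNP, 6.16 and 6.67 in Mx, 7.49 and 8.73 in Md, and 10.46 and 5.47 in PA2, was not listed in either knockout replicate, and scored 7.27 and 7.36 in E12.5 pinna and 8.09 and 6.63 in E14.5 pinna. All 12 wild-type libraries thus listed it and neither knockout library did. The difference on the asinh scale was -2.72 (limma adjusted p = 0.00263), and the adjusted p stayed between 0.000145 and 0.0213 over the alternatives in which the pair was tested. The fragments on both sides of it were listed in the knockout, that at 342 kb with the scores given above, and the knockout lists were the shortest of the study.

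The second region of Six2 contacts lay beyond Six3, 204 to 233 kb below the Six2 bait, at and just past the end of Camkmt, a lysine methyltransferase gene. It held 6 fragments, 5 between protein-coding genes and 1 with an exon of Camkmt. FNP, Mx and E14.5 pinna listed 0 of the 6 in both replicates and Md 2 and 2, whereas PA2 listed 6 and 6, the knockout 4 and 4, and E12.5 pinna 6 and 2. These contacts were thus listed mostly in PA2, in both genotypes, and in E12.5 pinna. One of the 6 was called over the 7 conditions, chr17:85458325-85459285, at 233 kb. It scored 10.4 and 7.54 in PA2, 9.67 and 9.19 in the knockout and 6.05 and 6.45 in E12.5 pinna, and was unlisted in the other 8 libraries (limma adjusted p = 0.0108).

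A 663-base fragment at 166 kb, chr17:85857829-85858491, between protein-coding genes, was listed only in PA2 (5.73 and 5.25) and the knockout (5.34 and 5.41), just above the listing limit in each (its call needs all 4, since a pair listed in fewer was not tested). It was called over the 7 conditions (limma adjusted p = 0.00826) and lower in pinna than in PA2 (-2.40 on the asinh scale, SE 0.38, limma adjusted p = 0.0116). Scores this close to 5 cannot be told from scores just below the limit, which are unlisted.

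**Figure D2:**
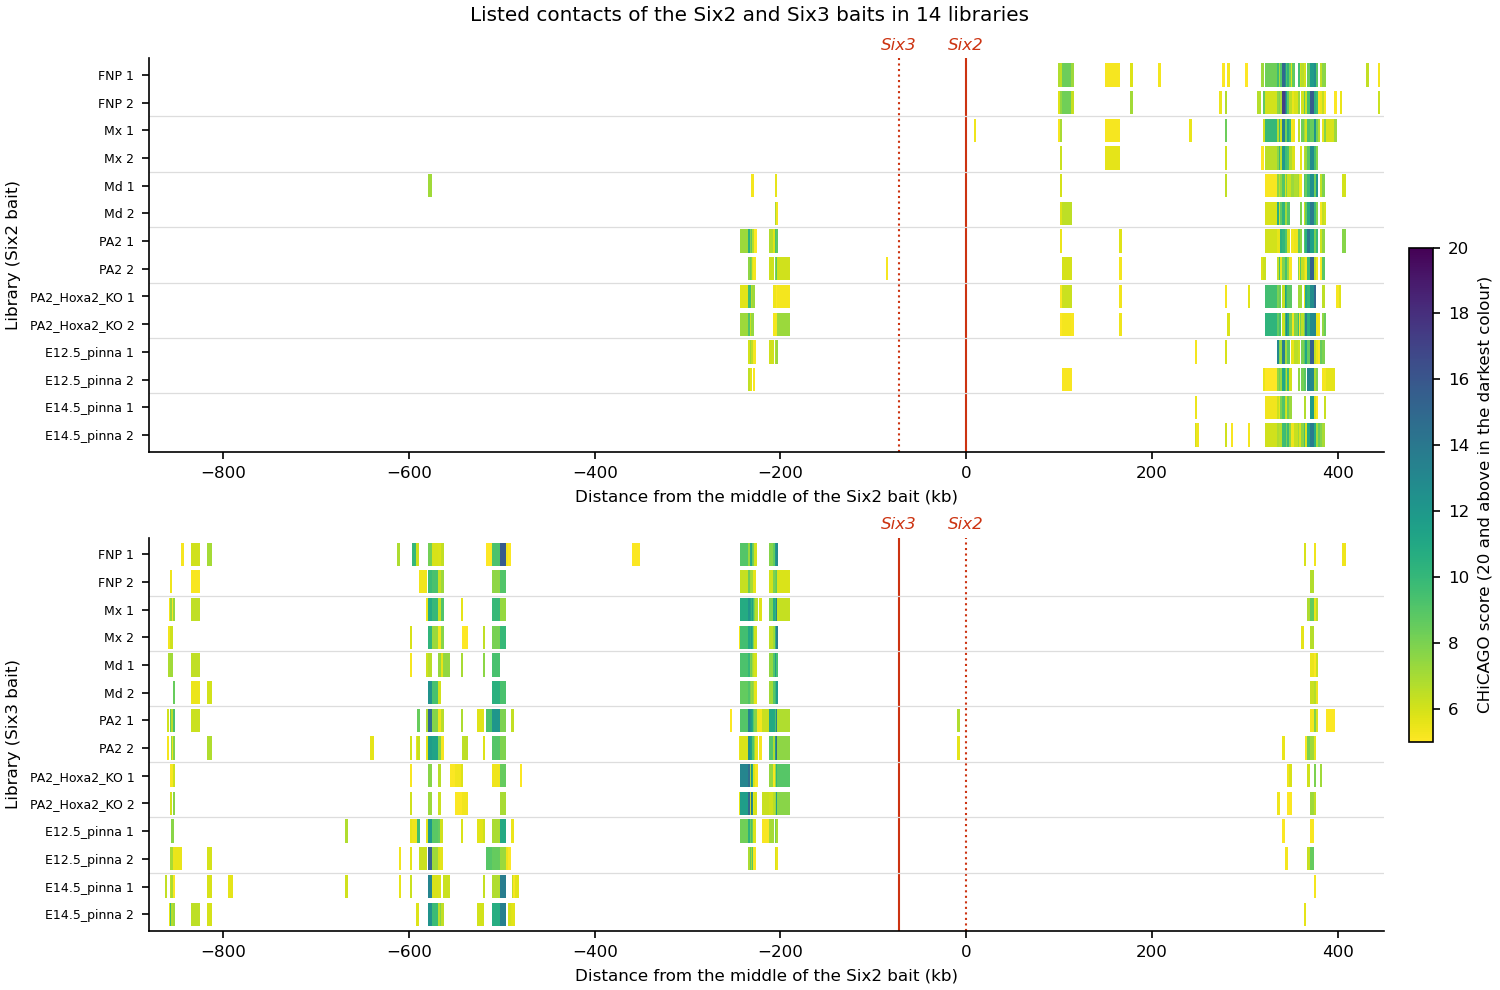
Listed contacts of the Six2 bait (top) and Six3 bait (bottom) in the 14 libraries (rows), against the distance from the middle of the Six2 bait in kb, with colour for the CHiCAGO score. The solid line marks the viewpoint and the dotted line its neighbour. Most Six2 contacts (65.6% or more) sit on the right of the Six2 bait in every library, and at most 16.1% of Six3 contacts sit on the right of the Six3 bait. Both contact the region 204 to 233 kb to the left of Six2 in PA2, the knockout and E12.5 pinna, and with fewer Six2 fragments in Md.

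The same 6 fragments belonged to the block of Six3 that holds all 8 of its called pairs. It ran from 124 to 166 kb below the Six3 bait, chr17:85448872-85502738, and held 14 fragments, 2 with an exon of Camkmt and 12 between protein-coding genes, of which 1 overlaps the pseudogene Rpl31-ps16. FNP listed 13 and 11 of them, Mx 14 and 13, Md 12 and 13, PA2 14 and 14, the knockout 14 and 14, and E12.5 pinna 9 and 8, while both E14.5 pinna replicates listed 0. The summed score was 113 and 78.4 in FNP, 136 and 116 in Mx, 99.3 and 104 in Md, 141 and 134 in PA2, 124 and 126 in the knockout, and 72.8 and 54.2 in E12.5 pinna. The E14.5 lists held 145549 and 182088 same-chromosome pairs and those of PA2 140559 and 145035. The depth behind these scores is unknown, and whether depth or enzyme had a part was not tested.

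Within this block 8 fragments were called over the 7 conditions and all 8 were called lower in the pinna than in PA2, by 1.57 to 2.86 on the asinh scale. The clearest was the 557-base fragment chr17:85488047-85488603, 131 kb below the bait. It scored 12.9 and 8.8 in FNP, 13.59 and 13.66 in Mx, 9.45 and 11.8 in Md, 13.63 and 15.0 in PA2, 10.2 and 11.6 in the knockout, 6.93 and 5.43 in E12.5 pinna, and was unlisted at E14.5. The pinna stages were thus below every E10.5 library (-2.10, SE 0.24, limma adjusted p = 0.00679 against PA2, and 0.0017 over the 7 conditions). The 961-base fragment at 161 kb, also called for Six2 above, scored highest in the knockout (14.6 and 15.0) and was unlisted at E14.5 (-1.84, SE 0.23, limma adjusted p = 0.0103). Of the other 6, the pair at 155 kb scored 5.87 and 5.16 in E12.5 pinna and had the highest adjusted p (-1.69, limma adjusted p = 0.0245). Without PA2 replicate 1, 6 of the 8 lost their call, with adjusted p up to 0.116, and 5 of them lost it without PA2 replicate 2, with adjusted p up to 0.12, while those at 131 and 161 kb kept it in every fit that left out 1 library. The difference between the E12.5 and E14.5 stages was not tested by itself.

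The shortest fragment in the block is printed whole because it is the shortest tested fragment of any member. It is 202 bases long, lies 157 kb below the Six3 bait between protein-coding genes, and was listed in 8 libraries, with scores up to 8.54. The nearest tested fragments on both sides were listed in 12 libraries, with scores up to 13.9 and 12.4. The contact is therefore not narrowed to this 202-base fragment. Capitals mark a match to the Hox and Pbx motif TGATNNAT, which 11.98% of the 10134 mm10 fragments within 10% of its length also hold, and it holds no match to the other 2 motifs.

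Six3 contact (chr17:85462311-85462512, plus strand): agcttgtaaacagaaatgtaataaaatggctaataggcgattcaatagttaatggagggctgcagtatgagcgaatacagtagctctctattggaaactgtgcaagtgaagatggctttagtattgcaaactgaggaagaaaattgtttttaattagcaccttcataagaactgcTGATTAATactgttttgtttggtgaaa

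Other Six3 contacts were present at all stages. A block of 11 fragments within Camkmt, 426 to 525 kb below the bait, was listed with 4 to 10 fragments in every library, E14.5 included (7 and 7). Its strongest fragment, chr17:85112714-85116992, at 505 kb, was listed in all 14 libraries with scores from 6.64 (Md replicate 1) to 15.4 (E12.5 pinna replicate 2). That at 495 kb was listed in all 14 as well, with scores of 5.25 to 8.56, and those at 434 and 426 kb in 13. None of the 11 was called in any contrast. A farther block of 6 fragments, 742 to 784 kb below the bait, was listed with 1 to 6, the most in E14.5 pinna (5 and 6) and PA2 replicate 1 (5).

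The summed score of the Six3 bait was 255 and 150.2 in FNP, 272 and 223 in Mx, 210.3 and 196 in Md, 334 and 320.2 in PA2, 233 and 228 in the knockout, 211 and 185 in E12.5 pinna, and 141 and 156 in E14.5 pinna. Both PA2 libraries were above the other 12, with a mean of 327 ± 9.48 (SD, n = 2), against 230.5 ± 3.27 in the knockout and 148 ± 10.52 in E14.5 pinna. The pinna was lower than PA2 by 1.13 on the centred log2 scale (-1.13, SE 0.31), with a limma adjusted p of 0.04997 at the very threshold. Leaving out single libraries moved it between 0.00827 and 0.336, the latter without PA2 replicate 1 (0.286 without PA2 replicate 2), and it was past the threshold in 6 of 23 alternatives.

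Six2 and Six3 shared 10 of their tested fragments, 27.8% of the 36 of Six2 and 28.6% of the 35 of Six3. The 6 beyond Camkmt are the ones described above. The other 4 lay in the Srbd1 block, 442 to 451 kb above the Six3 bait, where Six3 listed 0 to 4 and Six2 listed the same fragments in most libraries.

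The core letters of the CTCF site were found in 2 of the 36 Six2 fragments (5.56%) and in 8 of the 35 Six3 fragments (22.9%). Fragments of like length anywhere in mm10 held it at mean shares of 13.4% and 16.6%. The Six2 bait held no match and the Six3 bait 3. A match from each of the 2 Six2 fragments is shown because both lie in the Srbd1 block, listed at every stage. They are read on the minus strand of the genome with 16 bases before and after the match, which is in capitals.

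Six2 contact at 355 kb (chr17:86048113-86048153, minus strand): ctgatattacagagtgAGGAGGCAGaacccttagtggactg
Six2 contact at 382 kb (chr17:86075615-86075655, minus strand): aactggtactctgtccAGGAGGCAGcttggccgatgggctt

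Six4 and Six6 lie on chromosome 12 with start sites 174 kb apart, and both contacted the region around Tmem30b, a gene for a subunit of lipid flippases. The Six4 contacts there ran from 293 to 446 kb above Six4, and those of Six6 only from 406 to 446 kb above Six4. The Six4 bait is chr12:73109153-73113642 (gene on the minus strand) and the Six6 bait chr12:72930326-72943699 (plus strand), which also holds the start of 4930447C04Rik. A Six4 promoter window is shown because it holds the only MEF3 match among the promoter windows of the members at hand (Six2, Six3, Six4, Six6 and Eya4). Another Six4 window at hand, chr12:73113376-73113675, held no match. The MEF3 letters, in capitals, read as GAAACCTGA on the strand printed.

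Six4 (chr12:73113196-73113495, minus strand): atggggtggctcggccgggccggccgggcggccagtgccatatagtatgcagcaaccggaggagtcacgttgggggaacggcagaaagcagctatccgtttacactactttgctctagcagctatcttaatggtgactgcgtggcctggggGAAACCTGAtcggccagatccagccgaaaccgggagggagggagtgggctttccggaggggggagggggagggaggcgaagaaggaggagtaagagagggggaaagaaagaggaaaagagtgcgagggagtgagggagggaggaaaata

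Six4 had the lowest adjusted p of the 7 members over the 7 conditions and in the pinna contrast. Its summed score was 354 and 385 in FNP, 361 and 489 in Mx, 225 and 335 in Md, 271 and 228 in PA2, and 272 and 282 in the knockout. It was 92.4 and 73.4 in E12.5 pinna and 43.3 and 81.4 in E14.5 pinna. All 4 pinna libraries were below all 10 E10.5 libraries. The bait was called over the 7 conditions (limma adjusted p = 2.45e-05) and lower in the pinna than in PA2 by 1.97 on the centred log2 scale (-1.97, SE 0.32, limma adjusted p = 0.000803). Both calls held under all 23 alternatives, with the adjusted p of the pinna contrast at most 0.0481. The knockout differed from PA2 by 0.32 (SE 0.37, limma adjusted p = 0.798).

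Most Six4 contacts lay in a far block 293 to 446 kb above the bait, chr12:73398285-73559713, with 33 fragments, 2 with an exon of Tmem30b and 31 between protein-coding genes. Some of the 31 overlap annotated genes of other types, such as D830013O20Rik, Gm48656 and Gm34016. FNP listed 27 and 31 of them, Mx 29 and 33, Md 22 and 31, PA2 27 and 25, and the knockout 23 and 27. E12.5 pinna listed 11 and 8 and E14.5 pinna 6 and 11. The highest pinna library thus listed 11 and the lowest E10.5 library 22.

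The strongest contact of any member was the 1279-base Six4 fragment chr12:73516288-73517566, at 406 kb. It scored 25.1 and 22.96 in FNP, 22.3 and 33.1 in Mx, 18.1 and 25.9 in Md, 13.4 and 13.8 in PA2, 15.5 and 15.9 in the knockout, 8.82 and 12.9 in E12.5 pinna, and 7.73 and 13.63 in E14.5 pinna. It was listed in all 14 libraries, with FNP, Mx and Md above every PA2, knockout and pinna library, but was not called (limma adjusted p = 0.101 over the 7 conditions). The next fragment, at 410 kb, was also in all 14 and was called (limma adjusted p = 0.0494), with 9.66 to 16.3 in FNP, Mx and Md, 14.9 and 13.6 in PA2, 6.92 and 7.67 in the knockout and 5.3 to 7.95 in the pinna. The fragments at 404 and 442 kb were listed in 13 libraries, with scores of up to 18.4 and 17.4, and that at 428 kb in 12. None of these 3 was called.

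The 4 Six4 pairs called lower in the pinna were in this block. The largest difference was at 349 kb, chr12:73453255-73466603, a fragment that scored 9.53 and 10.9 in FNP, 11.5 and 13.9 in Mx, 9.9 and 6.35 in Md, 11.6 and 9.81 in PA2 and 11.7 and 9.79 in the knockout. It was unlisted in all 4 pinna libraries (-3.06 on the asinh scale, SE 0.34, limma adjusted p = 0.00636). Its neighbour at 356 kb was likewise listed in all 10 E10.5 libraries and in no pinna library, with its highest scores in the knockout (15.6 and 14.1, limma adjusted p = 0.0116). The fragment at 416 kb was unlisted in E12.5 pinna and scored 5.51 and 5.49 in E14.5 pinna, against 6.47 to 13.2 at E10.5 (-1.41, SE 0.28, limma adjusted p = 0.0343). The 357-base fragment at 442 kb, chr12:73552758-73553114, was unlisted in FNP and the pinna and scored 5.55 to 10.9 in the other 8 libraries (-2.59, limma adjusted p = 0.0286). Those at 356, 416 and 442 kb lost their call without either PA2 replicate, with adjusted p up to 0.155, and those at 416 and 442 kb also without either knockout replicate or E14.5 pinna replicate 1, while that at 349 kb kept it without any 1 library.

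Nearer to Six4, a block of 8 fragments from 213 to 251 kb, 7 of them in the amino acid transporter gene Slc38a6, had another order. FNP listed 6 and 7 of the 8, Mx 7 and 7, Md 2 and 4, PA2 2 and 1 and the knockout 5 and 5, while E12.5 pinna listed 3 and 0 and E14.5 pinna 0 and 0. The fragment at 216 kb, chr12:73326049-73329732, was listed only in FNP (8.49 and 5.45), Mx (6.49 and 7.5) and the knockout (5.55 and 6.71) and was called over the 7 conditions (limma adjusted p = 0.0175). Its difference between the knockout and PA2 was 2.51 on the asinh scale but was not called (limma adjusted p = 0.0722).

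The core letters of the CTCF site were in 15 of the 47 Six4 fragments (31.9%, against a mean share of 20.5% among fragments of like length) and in 3 of the 10 Six6 fragments (30%, against 25.3%). The 2 shown lie in the fragment called most clearly lower in the pinna and in the last fragment of the block, which Six6 also contacts.

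Six4 contact at 349 kb (chr12:73454818-73454858, minus strand): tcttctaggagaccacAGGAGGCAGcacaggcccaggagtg
Six4 contact at 446 kb (chr12:73554412-73554452, plus strand): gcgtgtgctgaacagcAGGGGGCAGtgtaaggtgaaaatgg

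The Six6 bait contacted the end of the same region. Of its 10 tested fragments 7 lay 580 to 620 kb above it, and all 7 were also among those of Six4 (70% of the Six6 fragments, 14.9% of the Six4 fragments). Each library listed 3 to 7 of these 7, with 4 and 5 in E14.5 pinna. The fragments listed most often were at 606, 617 and 612 kb, each in 13 libraries with scores up to 14.54, 15.0 and 12.8, followed by those at 620 kb in 12 and at 603 kb in 8. None was called. The Six6 and Six4 baits thus listed the same 7 fragments, and the 4 pinna libraries listed 4 or 5 of them for Six6 against 3 to 7 in E10.5 cells. The Six4 bait too listed contacts at this end in the pinna, with the fragment 406 kb above it in every library. One other Six6 pair was called over the 7 conditions, a fragment 109 kb above the bait. It scored 6.69 and 6.09 in FNP, 6.43 and 6.59 in PA2 and 13.8 and 11.9 in E12.5 pinna, and was unlisted in the remaining 8 libraries (limma adjusted p = 0.00972). The summed score of the Six6 bait was not called in any contrast. It was 116 and 83.7 in FNP, 99.3 and 55.2 in Mx, 42.4 and 111 in Md, 99.6 and 109 in PA2, 47.1 and 54.5 in the knockout, 107 and 66.5 in E12.5 pinna, and 26.8 and 42.9 in E14.5 pinna. Both knockout libraries were below both PA2 libraries, but Md spanned both (knockout minus PA2 -0.80 on the centred log2 scale, SE 0.50, limma adjusted p = 0.582).

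**Figure D3:**
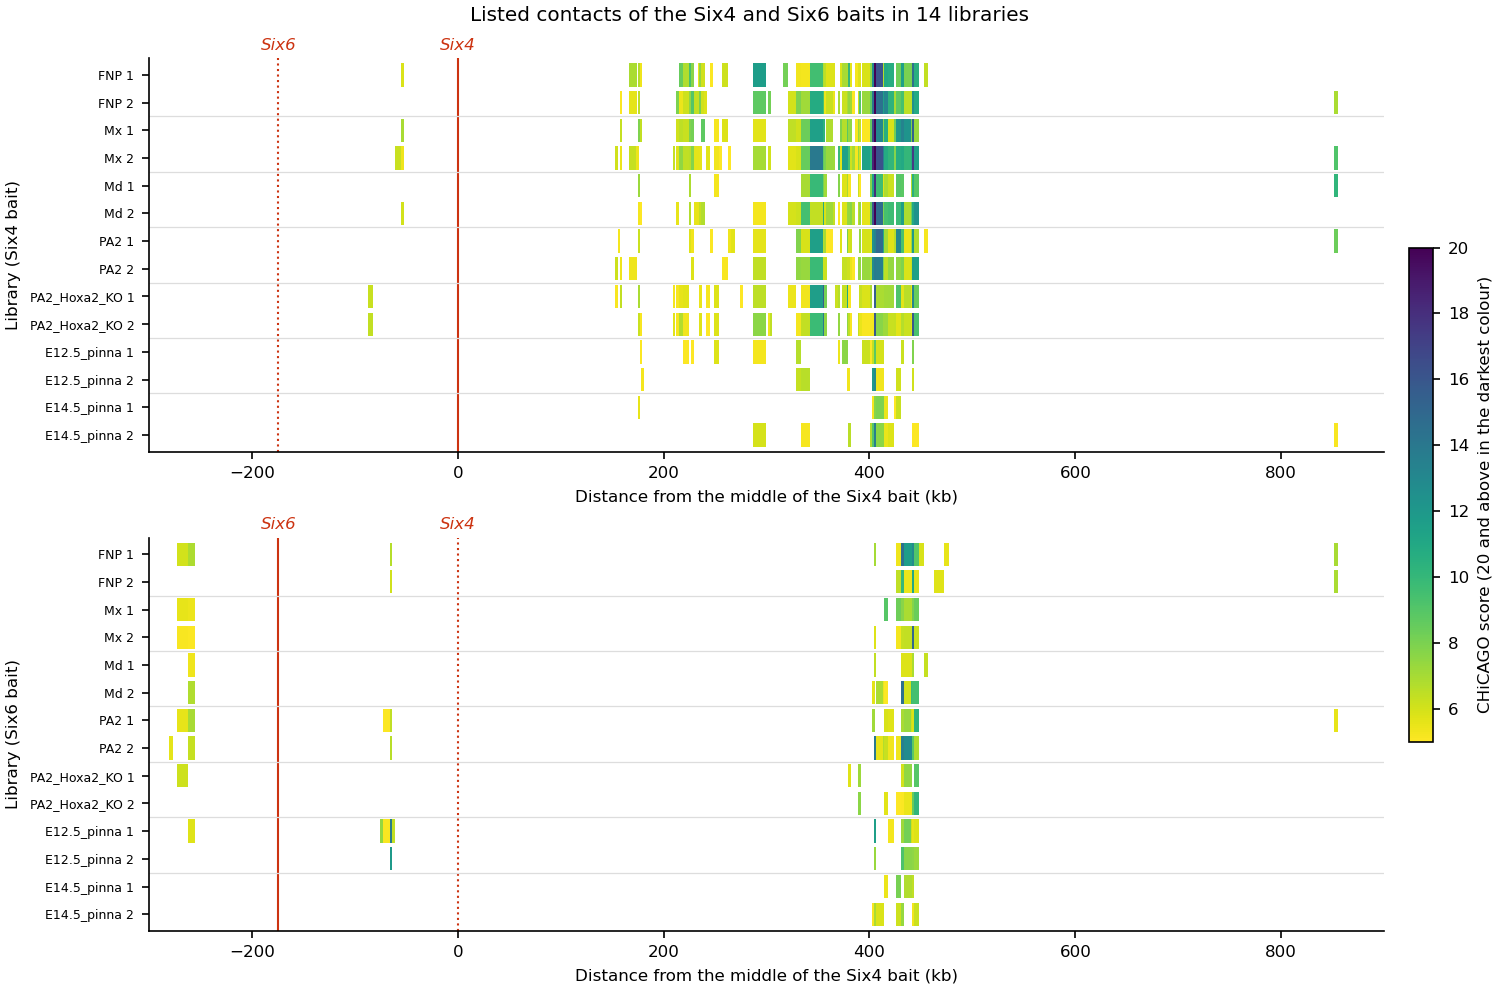
Listed contacts of the Six4 bait (top) and Six6 bait (bottom) in the 14 libraries (rows), against the distance from the middle of the Six4 bait in kb, with colour for the CHiCAGO score. The dense Six4 block from 293 to 446 kb thins out in the 4 pinna libraries. At its far end contacts of both baits are listed in every library.

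Contacts with other promoters were few. Of the fragments that are themselves baits, Six4 contacted that of Slc38a6 and Trmt5, a tRNA methyltransferase gene, in 9 libraries, that of D830013O20Rik in 11 and that of Tmem30b and 2210039B01Rik in 9. Six6 contacted the Tmem30b bait in 13 libraries, and Eya4 that of the small RNA gene Gm24655, which lies inside Eya4, in 8. No bait of another gene was contacted in 7 or more libraries by Six2, Six3, Eya1 or Eya2.

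Among the co-activators, Eya1 was the one with called pairs (4 over the 7 conditions). Its bait, chr1:14308051-14313672 (gene on the minus strand), holds 5 of its 9 annotated start sites, and the other 4 lie on fragments that are no baits. The summed score was 257 and 259 in FNP, 251 and 273 in Mx, 144 and 188 in Md, 162 and 130 in PA2, and 154 and 204 in the knockout. It was 64.0 and 96.6 in E12.5 pinna and 61.7 and 71.9 in E14.5 pinna. FNP and Mx were above every other library, and the pinna below every E10.5 library. The bait was called over the 7 conditions (limma adjusted p = 0.000509) under all 23 alternatives too. The difference of the pinna from PA2 was -1.17 on the centred log2 scale (SE 0.29, limma adjusted p = 0.0293). That call was lost without either PA2 replicate or E14.5 pinna replicate 2 (adjusted p of 0.349, 0.142 and 0.066), and its range over the alternatives was 0.0167 to 0.349.

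Eya1 contacts fell into blocks that behaved differently, all 37 tested fragments lying outside annotated protein-coding genes. In the near block, 177 to 206 kb upstream of the bait, all 10 fragments were listed in both replicates of FNP and Mx. Md listed 6 and 8, PA2 3 and 4, the knockout 4 and 6, E12.5 pinna 1 and 2 and E14.5 pinna 2 and 0. In a far block of 8 fragments at 315 to 329 kb, Mx and PA2 listed 7 and 7, Md 5 and 7, the knockout 5 and 5, FNP 4 and 4, and all 4 pinna libraries 0. In the near block FNP and Mx were thus above every other library, and in both blocks all 4 pinna libraries were below all 10 E10.5 libraries. The difference between the blocks was not tested.

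On the other side, 448 to 528 kb beyond the bait, a block of 13 fragments was listed in every condition. FNP listed 6 and 5 of them, Mx 3 and 3, Md 4 and 6, PA2 7 and 6, the knockout 5 and 7, E12.5 pinna 7 and 8 and E14.5 pinna 6 and 9. The pinna libraries thus listed 6 to 9 of these fragments and the E10.5 libraries 3 to 7, in the same lists in which the other 2 blocks were few or absent in the pinna. Its leading fragments, at 523 and 528 kb, were listed in 13 and 12 libraries with scores up to 13.5 and 16.4.

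In the near block 3 fragments were called over the 7 conditions. The fragment at 183 kb, chr1:14491822-14495169, was listed only in FNP (10.6 and 7.11) and Mx (5.55 and 10.2, limma adjusted p = 0.00826). It was listed in just the 4 libraries a test required, so it was tested only because it was listed in all of these. That at 189 kb, chr1:14499219-14501048, scored 9.51 and 11.8 in FNP, 12.9 and 9.21 in Mx and 6.76 and 6.47 in Md, was unlisted in PA2 and the pinna, and scored 5.24 and 8.26 in the knockout. It was the one member pair called higher in the knockout than in PA2 (2.58 on the asinh scale, limma adjusted p = 0.0417). That call was lost without either replicate of PA2 or of the knockout (adjusted p of 0.0863 to 0.282). The fragment at 206 kb showed the same pattern without Md, with 5.66 and 5.3 in the knockout, but its knockout difference of 2.40 was not called (limma adjusted p = 0.0819). The fragments of the near block listed most often, at 186, 201 and 194 kb, were in 11, 10 and 9 libraries and were not called.

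In the far block the 1217-base fragment chr1:14631519-14632735, at 321 kb, was listed in all 10 E10.5 libraries, with 5.84 (FNP replicate 2) to 13.7 (FNP replicate 1), and in no pinna library. It was called over the 7 conditions (limma adjusted p = 0.00782) and lower in the pinna (-2.75, SE 0.41, limma adjusted p = 0.0116). Without PA2 replicate 1 or 2 the adjusted p was 0.0667 and 0.0612.

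The core letters of the CTCF site were in 5 of the 37 Eya1 fragments (13.5%, against a mean share of 14.9% among fragments of like length), and 3 of the 5 were in the near block. The 2 in its short fragments are shown, one on each strand. Of fragments of like length, 4.68% and 7.16% held a match.

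Eya1 contact at 198 kb (chr1:14508830-14508870, minus strand): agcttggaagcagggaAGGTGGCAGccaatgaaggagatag
Eya1 contact at 205 kb (chr1:14516581-14516621, plus strand): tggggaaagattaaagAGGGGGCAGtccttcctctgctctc

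**Figure D4:**
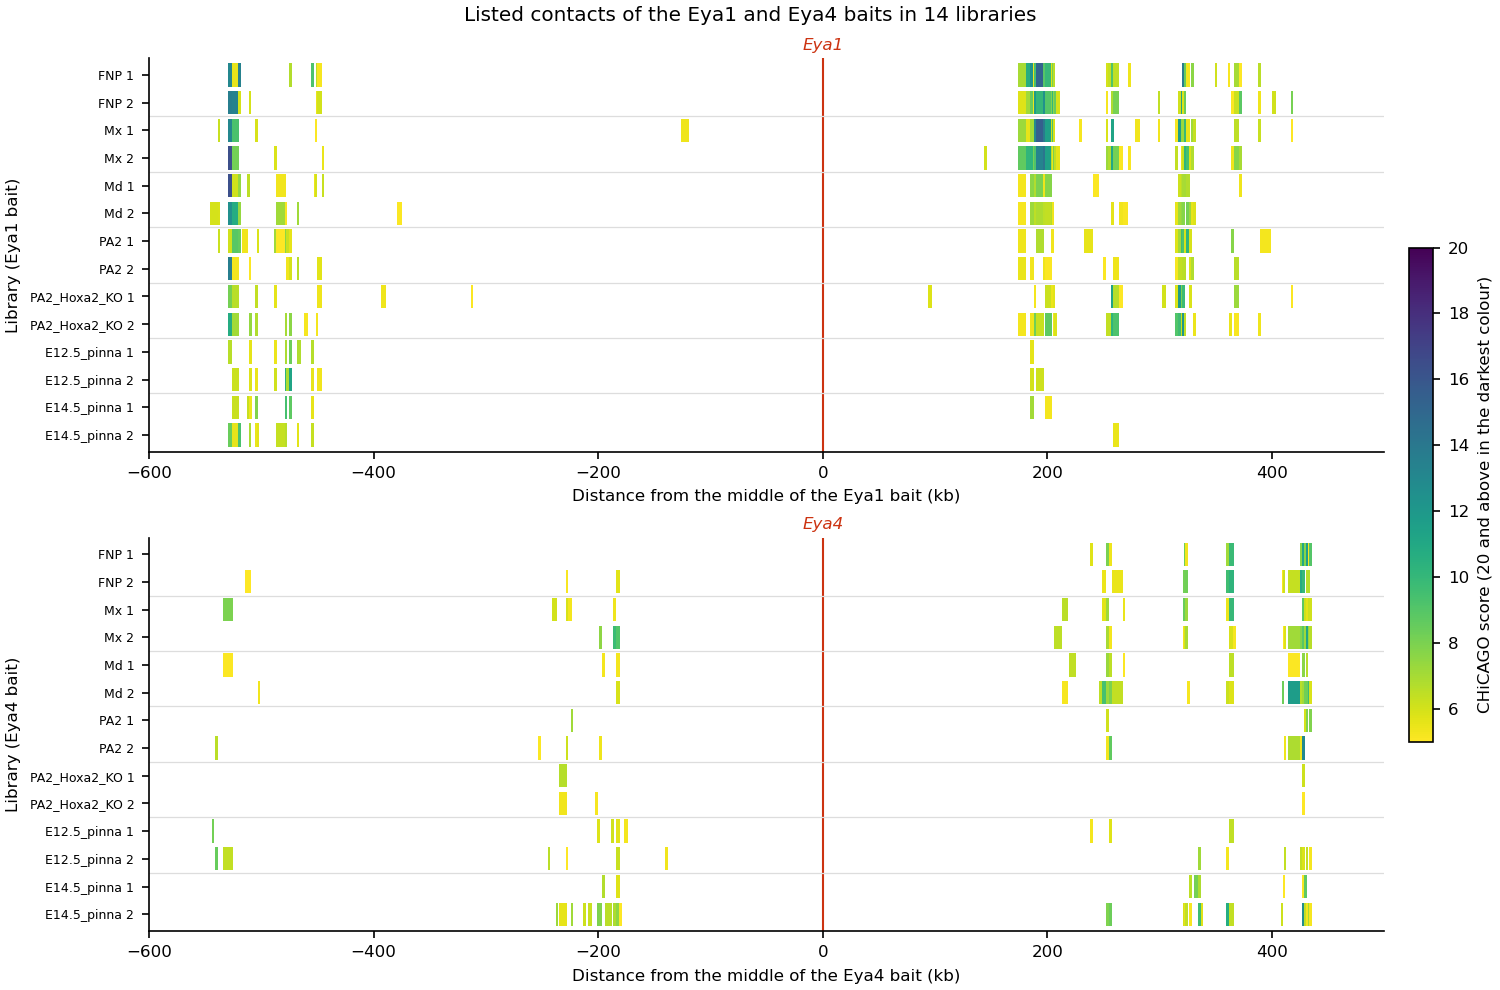
Listed contacts of the Eya1 bait (top) and Eya4 bait (bottom) in the 14 libraries (rows), against the distance from the middle of each bait in kb, with colour for the CHiCAGO score. For Eya1 the contacts on the right thin out from FNP and Mx to the pinna while those 448 to 528 kb to the left stay. For Eya4 the knockout rows are nearly empty.

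Eya4 had its fewest contacts in the knockout. The bait, chr10:23349382-23350733 (gene on the minus strand), holds 3 of 8 annotated start sites. Its summed score was 102 and 115 in FNP, 119 and 148 in Mx, 66.8 and 137.0 in Md, 34.9 and 67.6 in PA2, and 12.9 and 15.6 in the knockout. It was 48.4 and 86.3 in E12.5 pinna and 52.8 and 188.7 in E14.5 pinna. Both knockout libraries were below the other 12, but the E14.5 replicates differed by more than 3 times. The bait was called over the 7 conditions (limma adjusted p = 0.0156), and not without either knockout replicate (adjusted p = 0.124 and 0.0932) or with a score threshold of 10 (0.464). The knockout differed from PA2 by -1.32 on the centred log2 scale (SE 0.48), which was not called (limma adjusted p = 0.262). Of all 142 baits called in this contrast, 139 were lower in the knockout.

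Of the 15 tested Eya4 pairs 0 were called by limma. At an unadjusted p below 0.05 were 2 over the 7 conditions (against 15.3% of all pairs). In each of the 3 contrasts it was 1 (against 7.1% of all pairs for FNP, 16.9% for the knockout and 13.4% for the pinna). The main block, 420 to 435 kb upstream of the bait, held 7 fragments, of which FNP listed 6 and 5, Mx 5 and 7, Md 3 and 7, PA2 3 and 3, the knockout 1 and 1, E12.5 pinna 0 and 4 and E14.5 pinna 2 and 5. Its leading fragment, at 428 kb, was listed in 12 libraries with scores of up to 13.0, and those at 431, 364 and 254 kb in 9, 8 and 8. The fragment with Gm24655, 182 kb on the other side within an Eya4 intron, was listed in 8.

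The Eya2 bait, chr2:165649748-165660581, holds 2 of 6 annotated start sites. It listed 3 and 1 fragments in FNP, 1 and 0 in Mx, 0 and 1 in Md, 0 and 1 in PA2, 1 and 2 in E12.5 pinna, and none in the knockout or E14.5 pinna. No Eya2 pair could be tested, and its summed score was not called (limma adjusted p = 0.522 over the 7 conditions).

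**Figure D5:**
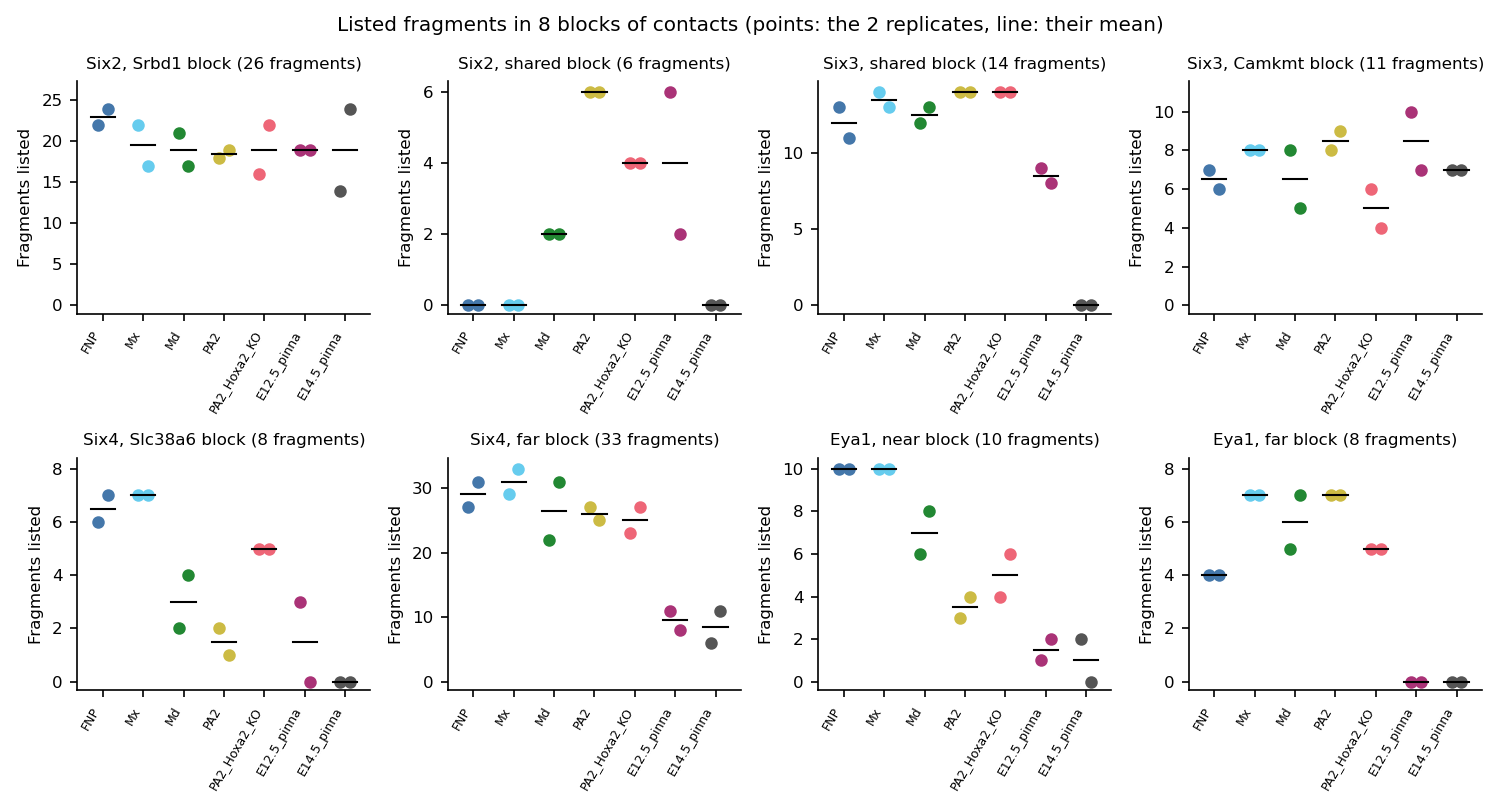
Number of fragments listed (vertical axis, from 0 to all fragments of the block) in 8 blocks of Six2, Six3, Six4 and Eya1 contacts in the 7 conditions. Points are the 2 replicates and lines their means. The Srbd1 block of Six2 and the Camkmt block of Six3 are listed at every stage, while the shared block of Six3 and the far block of Eya1 hold 0 fragments at E14.5.

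Across the 14 libraries the summed scores of Six4 and Eya1 went together, with a Pearson r of 0.96 of the centred log2 values, as a description only, since both are measured in the same libraries and the same 2 stages are low in both. The r of Six2 with Six3 was 0.71, and that of Eya4 with the other members lay between -0.37 and 0.26. Of all 21991 baits, the one most like each member was Sstr5 for Six2 (r of 0.92), Foxd1 for Six3 (0.92), Rad51c and Tex14 for Six4 (0.98), and Hoxa9 and Mir196b for Six6 (0.92). It was B530045E10Rik for Eya1 (0.97), Crtac1 for Eya2 (0.83) and Irf2bp1 for Eya4 (0.92). Each is the highest of 21991 values, so no weight is put on its size.

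Of 9 other genes of the network tested (Six5, Eya3, Dach1, Dach2, Sobp and the co-repressors Tle1 to Tle4), 0 were called by limma over the 7 conditions or in any of the 3 contrasts. At an unadjusted p below 0.05 were 3 over the conditions (against 20.4% of all baits) and 1 for FNP (against 4.99%). It was 1 for the knockout (against 11.2%) and 3 for the pinna (against 15.2%). With a background of 5.1% of baits called over the conditions, 0 of 9 is near the share of all baits, and the genes were not compared with the members. Tle1 had a knockout difference of -1.41 on the centred log2 scale (SE 0.37, limma adjusted p = 0.0879). Sobp had a pinna difference of 1.80 (SE 0.60, limma adjusted p = 0.127).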

How the data were processed

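The authors mapped the PCHi-C reads to mm10 with HiCUP and called contacts in each library with CHiCAGO. The deposited lists give pairs of HindIII fragments with a CHiCAGO score, without read counts, and the names of Md replicate 1 and E12.5 pinna replicate 2 describe merged lists. All fragment ends on the chromosomes used matched a HindIII digest of GRCm38, and 186 to 506 pairs a library on other sequences were left out. Unlisted pairs were set to 0. Same-chromosome pairs listed in at least 4 libraries (asinh of the score) and baits (log2 of the summed score plus 5, median-centred) were fitted over all 14 libraries with limma 3.58.1 in R 4.3.3 (lmFit, eBayes with a trend), a moderated F over 7 conditions and 3 contrasts, adjusted by Benjamini-Hochberg. The code was tested on simulated data. The sides of Six2 and Six3 were compared with SciPy 1.17.1. Replicate numbers did not pair the samples: of 21 correlations of replicate differences between conditions, 2 were over 0.1 (median 0.04).

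The members, motifs and lists were chosen with earlier results of these data known. Named were, of each member, the 5 fragments listed in most libraries, pairs called in a contrast (at most 10 per contrast by size of difference), baits contacted in at least 7 libraries and the most alike bait. Pairs called over the 7 conditions only, blocks, and the called pairs beyond 10 were named after their values were seen. Alternatives were a score threshold of 10, other minimum numbers of libraries, log2(score + 1), a cap of 20, quantile normalization, equal list lengths, other bait measures, a replicate block and leaving out each library. Leaving out both libraries rich in pairs between chromosomes was added after the data were seen.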

Additional observations from a re-analysis of the deposited data

Results flagged for a closer look

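Pairs between chromosomes, which no comparison above uses, were listed for the 7 baits in numbers of 31 in Md replicate 1 and 64 in E12.5 pinna replicate 2, against 0 to 3 in the other 12 libraries. Both libraries also hold the highest shares of such pairs over all baits. Their part in the results was measured by leaving both libraries out.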

How the results depend on the processing

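The contrast of sides between Six2 and Six3 kept its direction under all 18 alternatives (75.9 to 98.7 percentage points), and no result reversed. Counts of called member pairs moved with the processing, and the cause was not tested. With a score threshold of 10, which left 27 member pairs, the counts were 5 over the 7 conditions, 1 for FNP (3.7%, against 0.299% of all pairs) and 1 for the pinna (3.7%, against 2.88%). With pairs listed in at least 2 libraries, 296 were tested and the counts were 38 over the 7 conditions (12.8%, against 7.87% of all pairs), 12 for FNP (4.05%, against 2.11%), 13 for the knockout (4.39%, against 3.97%) and 22 for the pinna (7.43%, against 3.44%). The knockout count was 4 with at least 6 libraries (2.92%, against 2.82% of all pairs). It was 1 with quantile normalization (0.556%, against 1.5%) and 1 with a replicate block (0.556%, against 1.96%). These shares were near or below those of all pairs. The replicate block changed no other count by more than 1.5 times. Leaving out single libraries gave knockout counts of 1 to 6 and pinna counts of 3 to 19, and the share of all pairs called also moved in these fits. Without both libraries rich in pairs between chromosomes the counts were 40 over the 7 conditions and 13 for the knockout. The pinna count of baits was 1 without centring, with a threshold of 10 or with equal list lengths, and 1 to 3 when single libraries were left out. With 2 replicates and no read counts, scores near 5 may be listed in one library and not in the next, and a fragment left unlisted is not one without contact.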
